A study of Mus musculus with 18 samples.

Results

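Glycolysis converts glucose to pyruvate in the cytosol, and 10 mouse genes that carry glucose into cells and along this route are described here. They are *Slc2a1*, which encodes the glucose transporter GLUT1, and the genes of 9 enzymes: the hexokinases *Hk1* and *Hk2*, the phosphofructokinases *Pfkl* and *Pfkp*, *Gapdh*, *Pgk1*, *Eno1*, *Pkm* and *Ldha*. They were taken by gene symbol from tables that together list 18838 genes, and each symbol matched 1 gene in all 3 tables. All 10 had a mean of at least 10 normalised counts at every time point and were tested. Hexokinase traps glucose in the cell as glucose-6-phosphate, phosphofructokinase commits it to glycolysis, and the enzymes from glyceraldehyde-3-phosphate dehydrogenase to pyruvate kinase yield ATP, NADH and pyruvate. Lactate dehydrogenase A turns pyruvate into lactate and returns NAD+. In the intestinal epithelium, proliferating crypt cells and absorptive cells use glucose differently, and Paneth cells are known as a source of lactate for the neighbouring stem cells.

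The study asked how loss of MTGR1, a transcriptional corepressor encoded by *Cbfa2t2* (also called *Mtgr1*), alters the duodenal epithelium and its growth in culture. Bulk RNA-seq was available for WT (*Mtgr1*+/+) and *Mtgr1*-/- mice, 3 of each genotype, and the *Mtgr1*-/- mice lacked the gene in all tissues and not in the epithelium alone. From each mouse, duodenal crypts were sequenced as isolated (day 0), and crypts plated in Matrigel were sequenced as enteroids, epithelial cultures that grow from crypts, at 24 h (day 1) and 72 h (day 3), giving 18 libraries in 6 groups of 3. The medium of both genotypes held EGF, Noggin and R-spondin, and the mice of both genotypes were littermates matched for age, 8 to 12 weeks old and of both sexes. Because each library is a mixture of epithelial cells, fewer cells of a type and less RNA per cell cannot be told apart. The 3 libraries of a group came from separate mice.

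For 16 libraries the whole reads were taken as recovered from the normalised counts, and they held 22035316 to 28621990 reads each. *Cbfa2t2* itself passed as lower at no time in the libraries labelled *Mtgr1*-/-: in crypts it had 614, 523 and 595 normalised counts in WT and 697, 466 and 534 in *Mtgr1*-/-, with adjusted p = 0.917 in limma, and at day 1 and day 3 its log2 difference was 0.37 and 0.06 (adjusted p = 0.0557 and 0.686). These counts sum all transcripts of the gene and carry no information on which exons were read, so they do not check the labels, and *Mtgr1*-/- below means the libraries so labelled. All 7 epithelial markers were present in every group. At day 1 and at day 3, all 9 enterocyte markers passed the test as higher in *Mtgr1*-/-, while all 6 stem cell, all 6 Paneth cell, all 5 goblet cell markers listed and all 6 enteroendocrine markers passed it as lower. Of all genes tested, 58.9% passed at day 1 and 59.0% at day 3. In crypts, where 4.73% of all genes passed, only the goblet and enteroendocrine lists passed in full, as lower. The summed counts of these lists are given with the crypt result of *Slc2a1* and after the results of the 10 genes. Blood, stromal and muscle markers each summed to at most 194 normalised counts in every library. Within crypts, 2 libraries stood apart. WT mouse 3 had an immune marker sum of 7931 normalised counts against 1117 and 1189 in the other WT mice. *Mtgr1*-/- mouse 2 had a Paneth marker sum of 47122 against 1876 and 1414 in the other *Mtgr1*-/- mice. Crypt results are given with and without both where it matters.

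Hypoxia-inducible factors bind DNA at short core sites, ACGTG among them. MYC and the carbohydrate-responsive factor ChREBP bind E-boxes such as CACGTG, which contains ACGTG on both strands. Many glycolytic genes are textbook targets of these factors. In the 250 bases before a RefSeq start of each gene, ACGTG was found on either strand for 4 of the 10 genes, *Slc2a1*, *Hk2*, *Pgk1* and *Ldha*, against 16.6% of the 32851 RefSeq promoters of the same length. CACGTG was found only before *Ldha*, against 6.02% of all promoters. Other forms of the sites were not searched, so a gene without a match here may still carry one. The 4 windows are shown because their genes move in different ways in the enteroids. They are from RefSeq on GRCm38.p6, read 5′ to 3′ on the strand of the gene, with ACGTG or its reverse complement CACGT in capitals. *Slc2a1* is chr4:119108495-119108744 on the plus strand, *Hk2* is chr6:82774455-82774704 on the minus strand, *Pgk1* is chrX:106186850-106187099 on the plus strand and *Ldha* is chr7:46845554-46845803 on the plus strand. *Ldha* has 2 starts in RefSeq, and the window of the one nearest the start of its GENCODE gene is shown. A match is a description of the sequence and not evidence that a factor bound there.
Slc2a1: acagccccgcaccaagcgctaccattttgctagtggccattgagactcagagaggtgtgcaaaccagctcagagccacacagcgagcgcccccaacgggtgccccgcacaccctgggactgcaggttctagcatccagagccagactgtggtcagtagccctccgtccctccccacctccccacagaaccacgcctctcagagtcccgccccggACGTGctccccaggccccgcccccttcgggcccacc
Hk2: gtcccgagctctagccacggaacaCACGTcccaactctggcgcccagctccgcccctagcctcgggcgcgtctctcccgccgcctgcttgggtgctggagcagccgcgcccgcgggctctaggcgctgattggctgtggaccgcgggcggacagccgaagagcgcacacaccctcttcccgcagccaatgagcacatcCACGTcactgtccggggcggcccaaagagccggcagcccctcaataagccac
Pgk1: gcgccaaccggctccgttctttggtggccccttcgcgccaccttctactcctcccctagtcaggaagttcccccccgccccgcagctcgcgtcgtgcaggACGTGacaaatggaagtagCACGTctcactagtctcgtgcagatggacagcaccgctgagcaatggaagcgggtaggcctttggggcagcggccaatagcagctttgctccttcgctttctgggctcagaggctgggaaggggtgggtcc
Ldha: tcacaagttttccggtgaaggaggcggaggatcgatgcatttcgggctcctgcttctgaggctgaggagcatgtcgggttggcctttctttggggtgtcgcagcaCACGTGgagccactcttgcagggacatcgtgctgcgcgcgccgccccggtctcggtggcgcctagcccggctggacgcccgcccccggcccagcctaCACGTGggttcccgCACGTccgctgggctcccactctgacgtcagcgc

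The first comparison asked which of the 10 genes differed between genotypes in crypts as isolated. *Slc2a1* rose in *Mtgr1*-/- crypts, 1.76-fold, and it was the only one of the 10 to pass the test (limma, Benjamini-Hochberg adjusted over 12980 genes). Among all genes tested in crypts, 4.73% passed, 1.58% as higher and 3.15% as lower. The crypt values of the 2 genotypes did not overlap for 4 of the 10 genes, against 25.5% of all genes, 12.0% with *Mtgr1*-/- higher and 13.5% with it lower. *Slc2a1* was higher among these 4, and *Gapdh*, *Eno1* and *Pkm* had lower values in every *Mtgr1*-/- library.

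Enteroids gave another picture. At day 1, 7 of the 10 genes rose in *Mtgr1*-/- enteroids (*Slc2a1*, *Pfkp*, *Gapdh*, *Pgk1*, *Eno1*, *Pkm* and *Ldha*) and 1, *Hk2*, fell, on a background in which 58.9% of 12587 genes passed, 30.0% as higher and 28.9% as lower. At day 3, 7 rose (the same genes with *Hk1* in place of *Pgk1*) and *Hk2* again fell, where 59.0% of 12782 genes passed, 29.9% as higher and 29.1% as lower. The values of the genotypes did not overlap for 8 of the 10 genes at day 1, against 68.1% of all genes (34.2% with *Mtgr1*-/- higher and 33.9% with it lower). They did not overlap for 9 at day 3, against 68.8% (34.6% and 34.2%). The median log2 difference of the 10 genes was 0.02 for crypts, 0.57 for day 1 and 0.54 for day 3 enteroids, beside 0.01, -0.01 and 0.00 for all genes tested. The size of the rise depended on the scaling between libraries, since *Mtgr1*-/- enteroids had larger normalised totals: under equal library totals the median log2 difference of all genes was -0.33 at day 1 and -0.20 at day 3. Of all genes, 3776 passed as higher and 3637 as lower at day 1 as deposited, and 2200 and 5614 with equal totals. At day 3 the numbers were 3826 and 3719 as deposited and 2748 and 5089 with equal totals. With equal totals 6 of the 7 genes stayed higher past the threshold at day 1 and 5 of the 7 at day 3, and under quantile normalisation 2 did at day 1 (*Slc2a1* and *Pfkp*) and 3 at day 3 (*Slc2a1*, *Pfkp* and *Hk1*).

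**Figure D1:**
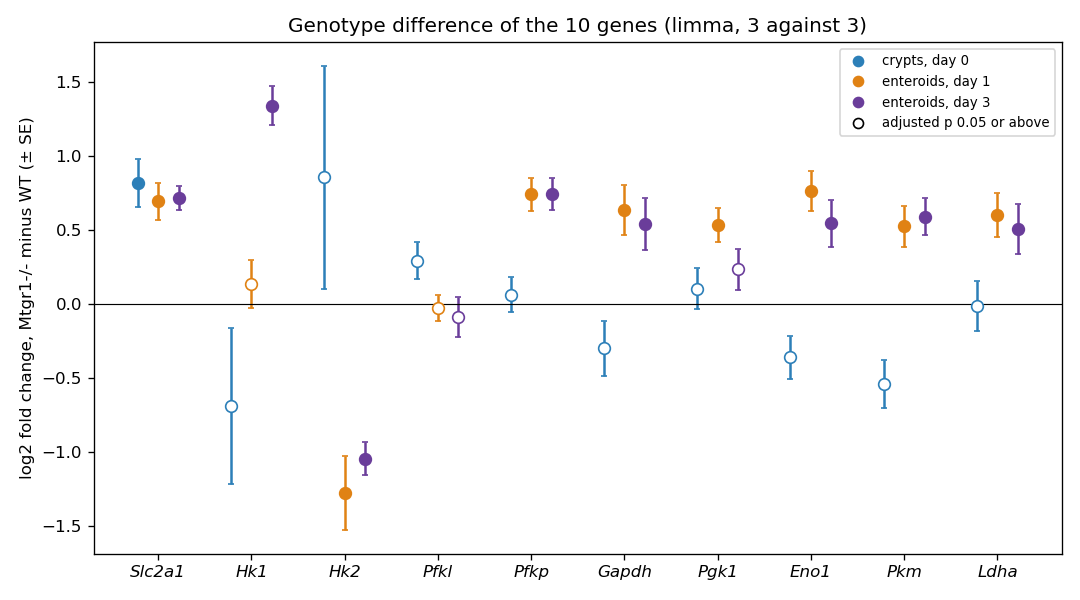
Log2 difference between *Mtgr1*-/- and WT on the log2(normalised count + 1) scale for each of the 10 genes in crypts, day 1 and day 3 enteroids, with the standard error from limma as bars and filled points where the adjusted p passed 0.05. *Slc2a1* lies at 0.82, 0.69 and 0.72, *Hk2* at -1.28 and -1.05 in enteroids, and *Gapdh*, *Pgk1*, *Eno1*, *Pkm* and *Ldha* above 0 in enteroids, although *Gapdh*, *Pkm* and *Ldha* turn below 0 at day 1 under quantile normalisation.

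GLUT1 carries glucose across the plasma membrane, and its gene *Slc2a1* (ENSMUSG00000028645.11, chr4:119108711-119137983 on GRCm38, plus strand) showed the same direction at every time point. In crypts it had 570, 597 and 410 normalised counts in WT and 939, 975 and 835 in *Mtgr1*-/-. At day 1 WT had 1870, 1550 and 1507 and *Mtgr1*-/- had 3075, 2418 and 2492. At day 3 WT had 1387, 1364 and 1251 and *Mtgr1*-/- had 2224, 2282 and 2067. At each time point every *Mtgr1*-/- library lay above every WT library. The log2 difference was 0.82 ± 0.16 (SE, n = 3 per genotype) in crypts with adjusted p = 0.0385 in limma. It was 0.69 ± 0.13 at day 1, a 1.62-fold rise with adjusted p = 0.00252. At day 3 it was 0.72 ± 0.08, a 1.64-fold rise with adjusted p = 0.000224. The enteroid calls held under both other scalings, with values of 0.37 (equal totals) and 0.54 (quantile) at day 1 and 0.52 and 0.63 at day 3, and without any single library. The crypt call was less secure. It was lost without WT mouse 1 (adjusted p = 0.106), WT mouse 2 (0.0777), *Mtgr1*-/- mouse 1 (0.122), mouse 2 (0.0902) or mouse 3 (0.0832), and it was kept without both libraries that stood apart (0.60, adjusted p = 0.0305, limma). With equal totals it was lost (0.85, adjusted p = 0.0532), as without limma's trend (0.0726). On the recovered reads, which leave out WT mouse 2, the adjusted p was 0.0793 in edgeR and 0.0011 in DESeq2. In the same crypt libraries the goblet markers summed to 123478 to 144295 normalised counts in WT and 4066 to 6413 in *Mtgr1*-/-. The enteroendocrine markers summed to 5720 to 9441 and 193 to 320. The part of these cells in the crypt difference of *Slc2a1* was not tested.

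Hexokinase 1 is the broadly expressed member of its family, and *Hk1* (ENSMUSG00000037012.18, chr10:62268855-62379908, minus strand) passed the test at day 3 alone among the 3 time points. In crypts the counts were 140, 135 and 381 in WT and 180, 63.7 and 147 in *Mtgr1*-/-, with overlapping groups and a log2 difference of -0.69 ± 0.53 (adjusted p = 0.545, limma). The highest of these values came from WT mouse 3, the library with the high immune marker sum, and without both libraries that stood apart the difference was 0.24. At day 1 the counts were 563, 395 and 590 in WT and 584, 550 and 542 in *Mtgr1*-/- (0.14 ± 0.16, adjusted p = 0.491). At day 3 WT had 341, 271 and 338 and *Mtgr1*-/- had 877, 819 and 711. Every *Mtgr1*-/- day 3 library thus held more than 2 times the *Hk1* count of any WT library, and the gene rose 2.54-fold (log2 1.34 ± 0.13, adjusted p = 0.000115, limma). The difference was 1.14 with equal totals and 1.39 with quantile normalisation.

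Hexokinase 2 is the inducible hexokinase of many growing cells. *Hk2* (ENSMUSG00000000628.10, chr6:82725025-82774454, minus strand) was the only one of the 10 genes to pass as lower in enteroids with the values as deposited. At day 1 WT had 1619, 1448 and 1508 normalised counts and *Mtgr1*-/- had 449, 972 and 564. At day 3 WT had 1878, 1474 and 1541 and *Mtgr1*-/- had 755, 850 and 753. The genotypes did not overlap at either time. The log2 difference was -1.28 ± 0.25 at day 1 (0.412 times the WT level, adjusted p = 0.00354, limma) and -1.05 ± 0.11 at day 3 (0.484 times, adjusted p = 0.000175). It passed under both other scalings and without any single library. In crypts the counts were 1256, 1315 and 730 in WT and 746, 6875 and 1400 in *Mtgr1*-/-. A single library, *Mtgr1*-/- mouse 2, set the crypt mean of that genotype: the log2 difference was 0.86 ± 0.76 (adjusted p = 0.604, limma) with it and -0.06 without it. This mouse also had the highest Paneth marker sum of its genotype at each time point, 47122, 7327 and 9228 normalised counts, and the highest *Hk2* value of its genotype at each. WT did not show this. The WT libraries with the highest Paneth sums, 174055 in crypts, 75482 at day 1 and 121396 at day 3, had *Hk2* counts of 730, 1508 and 1474. Those were the lowest WT values in crypts and at day 3, and not the highest at day 1. The part of Paneth cells in *Hk2* was not tested.

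The ratio of the hexokinase genes within a library does not depend on the scaling of that library. At day 3 *Hk2* exceeded *Hk1* 5.51, 5.44 and 4.56 times in WT, whereas the ratio was 0.861, 1.04 and 1.06 in *Mtgr1*-/-. At day 1 it was 2.87, 3.67 and 2.56 in WT and 0.768, 1.77 and 1.04 in *Mtgr1*-/-. The ratio was thus lower by 2.67-fold at day 1 and 5.25-fold at day 3 with no overlap, and the exact permutation test (two-sided) gave p = 0.1 at each, the smallest that 3 against 3 libraries can give. Leaving out any library kept the log2 difference between -1.74 and -1.14 at day 1 and between -2.48 and -2.30 at day 3. In crypts the ratios were 8.98, 9.76 and 1.92 in WT and 4.15, 108 and 9.50 in *Mtgr1*-/- and overlapped (exact permutation p = 0.5). Transcript length is left out of these ratios, so they compare libraries and not the amounts of the 2 transcripts.

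**Figure D2:**
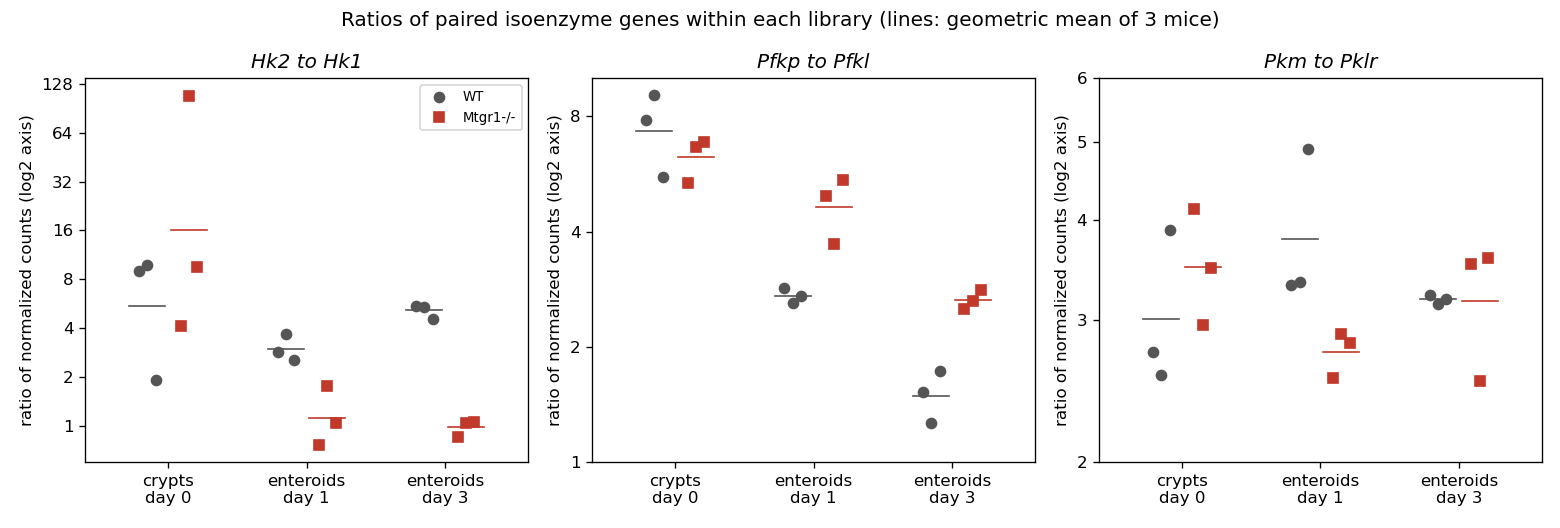
Ratio of normalised counts of *Hk2* to *Hk1*, *Pfkp* to *Pfkl* and *Pkm* to *Pklr* within each library (log axes), for WT and *Mtgr1*-/- crypts, day 1 and day 3 enteroids; each point is a library and lines mark the mean of the log2 ratios. At day 3 the *Hk2* to *Hk1* ratio lies between 4.56 and 5.51 in WT and between 0.861 and 1.06 in *Mtgr1*-/-, and the *Pfkp* to *Pfkl* ratio is higher in every *Mtgr1*-/- enteroid library.

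Phosphofructokinase adds the second phosphate, and its subunit genes went different ways. *Pfkp* (ENSMUSG00000021196.14, chr13:6579768-6648777, minus strand), the platelet-type subunit, had 11755, 12764 and 10334 normalised counts in WT crypts and 11230, 11974 and 13148 in *Mtgr1*-/- crypts. At day 1 WT had 7163, 6669 and 6836 and *Mtgr1*-/- had 12499, 9948 and 12294. At day 3 WT had 6232, 5474 and 5559 and *Mtgr1*-/- had 8715, 11010 and 9326. The crypt values overlapped (log2 0.06 ± 0.12, adjusted p = 0.834, limma), and in enteroids every *Mtgr1*-/- library lay above every WT library. The gene rose 1.67-fold at day 1 (0.74 ± 0.11, adjusted p = 0.00104) and 1.68-fold at day 3 (0.75 ± 0.11, adjusted p = 0.000715). With equal totals the differences were 0.42 and 0.55, and with quantile normalisation 0.39 and 0.47, all past the threshold.

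*Pfkl* (ENSMUSG00000020277.10, chr10:77986947-78010083, minus strand), the liver-type subunit, passed the test at no time. Its counts were 1504, 1401 and 1860 in WT crypts and 2089, 1800 and 1922 in *Mtgr1*-/- crypts. They were 2512, 2553 and 2518 against 2522, 2676 and 2258 at day 1, and 4100, 4337 and 3209 against 3463, 4176 and 3306 at day 3. The groups overlapped each time, with log2 differences of 0.29 ± 0.13, -0.03 ± 0.09 and -0.09 ± 0.14 and adjusted p of 0.278, 0.796 and 0.606 in limma. In crypts it passed as higher with library weights (0.42, adjusted p = 0.0125) and without both libraries that stood apart (0.47, adjusted p = 0.0398), and at day 1 it passed as lower with equal totals (-0.35, adjusted p = 0.0342). The *Pfkp* to *Pfkl* ratio was 2.85, 2.61 and 2.71 in WT and 4.96, 3.72 and 5.45 in *Mtgr1*-/- at day 1, and 1.52, 1.26 and 1.73 against 2.52, 2.64 and 2.82 at day 3. It was 1.71-fold and 1.78-fold higher with no overlap (exact permutation p = 0.1 for each).

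*Gapdh* (ENSMUSG00000057666.18, chr6:125161715-125166467, minus strand) encodes the dehydrogenase that makes NADH, and the study also used it as the reference gene of its qPCR. In crypts it had 91917, 93622 and 89189 normalised counts in WT and 76293, 64461 and 83502 in *Mtgr1*-/-. At day 1 it had 86404, 76515 and 85021 in WT and 131734, 113262 and 142152 in *Mtgr1*-/-. At day 3 it had 77276, 84662 and 74188 in WT and 96077, 141752 and 109276 in *Mtgr1*-/-. No groups overlapped, and the *Mtgr1*-/- values were the lower ones in crypts and the higher ones in enteroids. The crypt difference of -0.30 ± 0.19 did not pass (adjusted p = 0.456, limma). The gene rose 1.56-fold at day 1 (0.64 ± 0.17, adjusted p = 0.0127) and 1.45-fold at day 3 (0.54 ± 0.18, adjusted p = 0.0287) in the values as deposited. The day 1 call was lost without WT mouse 3 (adjusted p = 0.0514) or *Mtgr1*-/- mouse 3 (0.0569). The day 3 call was lost without WT mouse 1 (0.0888), mouse 2 (0.0624) or mouse 3 (0.0957) or *Mtgr1*-/- mouse 3 (0.0566), and with equal totals (0.34, adjusted p = 0.0596).

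*Pgk1* (ENSMUSG00000062070.12, chrX:106187100-106203699, plus strand) encodes the kinase of the first ATP-yielding step. It had 15211, 15328 and 11996 normalised counts in WT crypts and 16136, 13590 and 15781 in *Mtgr1*-/- crypts. At day 1 WT had 19557, 16828 and 17817 and *Mtgr1*-/- had 28860, 23596 and 26166. At day 3 WT had 19633, 19966 and 17243 and *Mtgr1*-/- had 20022, 27179 and 20202. It overlapped in crypts (0.10 ± 0.14, adjusted p = 0.751, limma) and rose 1.45-fold at day 1 (0.53 ± 0.12, adjusted p = 0.00576). At day 3 the groups did not overlap but the lowest *Mtgr1*-/- library lay close to the highest WT one, and 0.23 ± 0.14 did not pass (adjusted p = 0.176).

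*Eno1* (ENSMUSG00000063524.13, chr4:150236721-150248879, plus strand) encodes the main enolase. Its counts were 35921, 35298 and 37640 in WT crypts and 29215, 24271 and 31806 in *Mtgr1*-/- crypts. At day 1 they were 31197, 26698 and 29514 against 50449, 43214 and 55419, and at day 3 28889, 30156 and 25797 against 36134, 52160 and 37145. The crypt values were lower in every *Mtgr1*-/- library, without passing the test (-0.36 ± 0.15, adjusted p = 0.248, limma), and the enteroid values were higher in every one. The gene rose 1.70-fold at day 1 (0.77 ± 0.14, adjusted p = 0.0024) and 1.46-fold at day 3 (0.55 ± 0.16, adjusted p = 0.0177). The day 3 call was lost without WT mouse 3 (adjusted p = 0.0703). The near-identical *Eno1b* had mean counts of 36.9 and 140 in WT and *Mtgr1*-/- crypts against 36286 and 28431 for *Eno1*. Reads shared by the pair cannot be told apart, and summing the pair kept the calls of *Eno1*.

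*Pkm* (ENSMUSG00000032294.17, chr9:59656368-59679375, plus strand) encodes the M-type pyruvate kinase, whose splice forms are summed in these counts. In crypts it had 44553, 45856 and 45752 in WT and 32544, 25969 and 36092 in *Mtgr1*-/-. At day 1 it had 49676, 41587 and 46856 in WT and 66541, 61515 and 70658 in *Mtgr1*-/-. At day 3 it had 42653, 42087 and 39819 in WT and 58595, 71326 and 58318 in *Mtgr1*-/-. No groups overlapped, with *Mtgr1*-/- below WT in crypts and above it in enteroids. The crypt difference of -0.54 ± 0.16 did not pass in limma (adjusted p = 0.128), but passed with library weights (-0.48, adjusted p = 0.0203) and in DESeq2 on the recovered reads, without WT mouse 2 (-0.52, adjusted p = 0.044). The gene rose 1.44-fold at day 1 (0.53 ± 0.14, adjusted p = 0.0119, limma) and 1.51-fold at day 3 (0.59 ± 0.12, adjusted p = 0.00443). With equal totals the day 1 call was lost (0.21, adjusted p = 0.0849). The liver-type pyruvate kinase gene *Pklr* was also higher in every *Mtgr1*-/- enteroid library, by most in mouse 2 at day 3, and lower in every *Mtgr1*-/- crypt library. The *Pkm* to *Pklr* ratio was not higher in enteroids: the log2 difference of the ratio was -0.47 at day 1 without overlap (exact permutation p = 0.1) and -0.01 at day 3 (p = 1).

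*Ldha* (ENSMUSG00000063229.15, chr7:46841475-46855627, plus strand), the gene of lactate dehydrogenase A, had 51330, 54374 and 42482 normalised counts in WT crypts and 52040, 43099 and 51327 in *Mtgr1*-/- crypts. At day 1 WT had 51138, 42248 and 43673 and *Mtgr1*-/- had 73420, 60956 and 73897. At day 3 WT had 47112, 45908 and 44738 and *Mtgr1*-/- had 57005, 84275 and 57982. Crypts overlapped, with means of 49395 ± 6178 and 48822 ± 4969 (SD, n = 3) and adjusted p = 0.976 in limma. The gene rose 1.52-fold at day 1 (0.60 ± 0.15, adjusted p = 0.00962) and 1.42-fold at day 3 (0.51 ± 0.17, adjusted p = 0.0299). The day 3 call was lost without any one of WT mice 1, 2 and 3 (adjusted p = 0.0731, 0.0851 and 0.0884) and with equal totals (0.31, adjusted p = 0.0738). *Ldhb*, which encodes the other main subunit of the enzyme, was below the mean of 10 at every time and was not tested, and 3 of the 6 day 1 libraries were listed at 0.

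**Figure D3:**
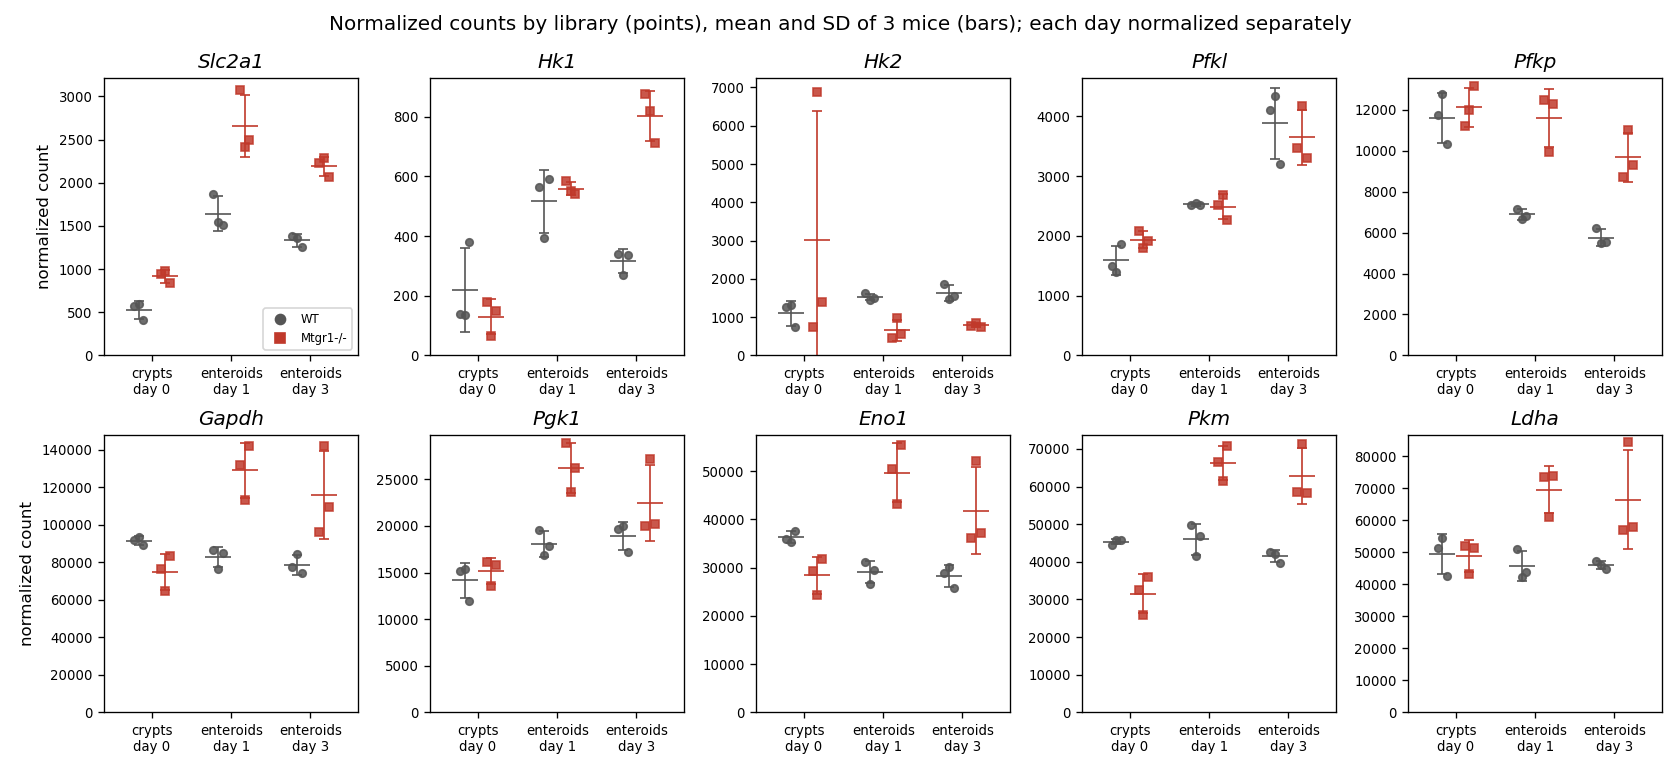
Normalised counts of the 10 genes in each of the 18 libraries, as deposited, at day 0 (crypts), day 1 and day 3, with 1 panel a gene; points are mice, and lines and bars are the mean and SD of 3 mice, cut at 0 for *Hk2* in *Mtgr1*-/- crypts. *Slc2a1* is higher in *Mtgr1*-/- at every time, *Hk2* is lower in enteroids, and 1 *Mtgr1*-/- crypt library reaches 6875 for *Hk2*.

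The scaling therefore divided the genes. *Slc2a1*, *Pfkp* and *Hk2* passed in enteroids at both times, and *Hk1* at day 3, whichever scaling was used. For the genes of the lower part of glycolysis and *Ldha* the call rested on the scaling, and under quantile normalisation at day 1 *Gapdh*, *Pkm* and *Ldha* turned to -0.081, -0.092 and -0.034 on the log2 scale, *Pgk1* to 0.12 and *Eno1* to 0.11. A share of the library total amounts to the scaling with equal totals. On this measure the 10 genes together held 0.984% ± 0.036 of all counts in WT and 1.20% ± 0.035 in *Mtgr1*-/- enteroids at day 1 (SD, n = 3). At day 3 they held 0.945% ± 0.054 and 1.18% ± 0.14. In crypts the order was the other way, 0.991% ± 0.050 in WT and 0.868% ± 0.055 in *Mtgr1*-/-. The genotypes did not overlap at any time, with exact permutation p = 0.1 for each, the smallest possible. *Gapdh*, *Ldha*, *Pkm* and *Eno1* held the largest parts of this share in every library.

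**Figure D4:**
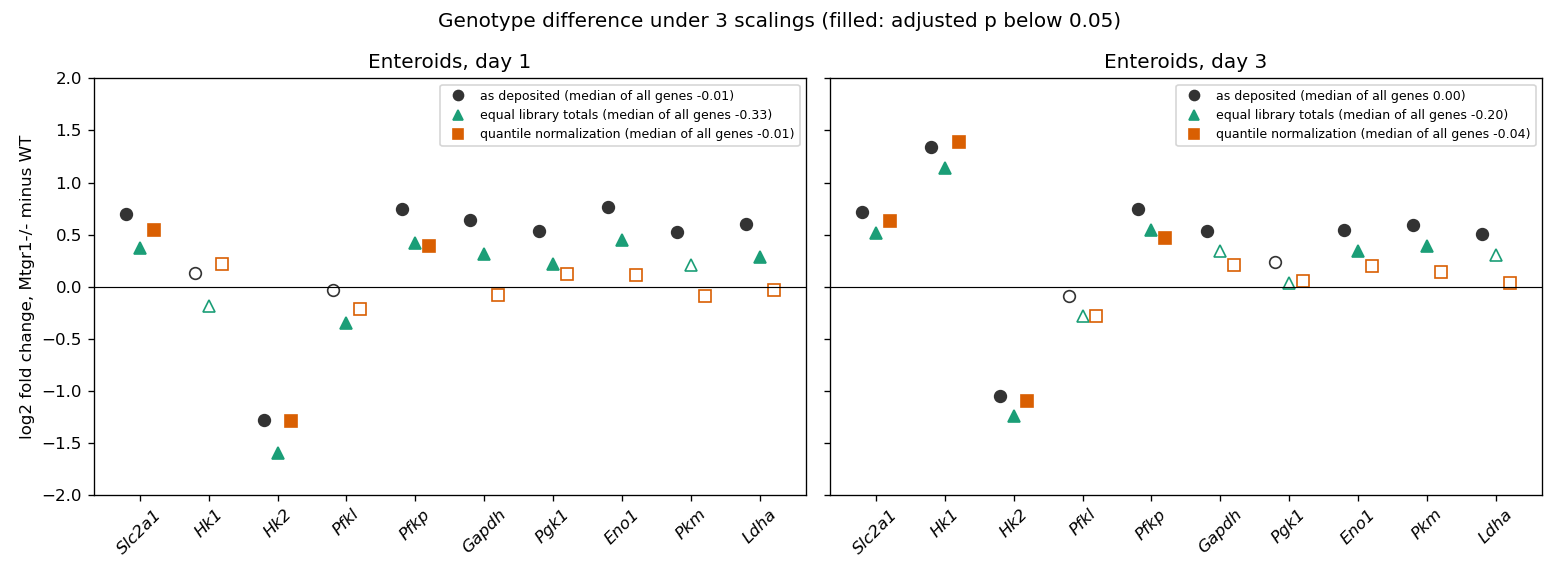
Log2 difference between *Mtgr1*-/- and WT for the 10 genes in day 1 and day 3 enteroids under the normalisation as deposited, with every library scaled to the same total, and with quantile normalisation; filled points passed an adjusted p of 0.05 in limma. *Slc2a1*, *Pfkp* and *Hk2* pass under each at both times, while *Gapdh*, *Pkm* and *Ldha* at day 1 lie between -0.092 and -0.034 under quantile normalisation.

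Cell type markers also differed between the genotypes. The summed enterocyte markers ranged from 179693 to 238693 normalised counts in WT and from 556966 to 931453 in *Mtgr1*-/- at day 1, and from 118818 to 133049 and from 410752 to 681245 at day 3. In crypts they overlapped, 360460 to 478455 and 367774 to 678882, and 0 of 9 passed. Other sums did not overlap in crypts. The 6 stem cell markers summed to 35742 to 44975 in WT and 4982 to 11192 in *Mtgr1*-/- crypts, and the 6 Paneth markers to 131957 to 174055 and 1414 to 47122, with 1 of 6 and 0 of 6 passing as lower. The 5 tuft cell markers summed to 1173 to 1318 and 1694 to 5554, with 1 passing as higher. The 6 stem cell markers summed to 43851 to 75349 in WT and 4344 to 6148 in *Mtgr1*-/- at day 1, and to 108098 to 130130 and 6177 to 12783 at day 3, while 7 of 8 cycling markers passed as lower at day 1 and all 8 at day 3. The 6 Paneth markers summed to 64149 to 75482 in WT and 757 to 7327 in *Mtgr1*-/- at day 1, and to 88869 to 121396 and 1703 to 9228 at day 3. The goblet markers summed to 56682 to 68923 against 1916 to 3819 at day 1, and to 28616 to 29375 against 1627 to 4119 at day 3. Among all genes, 28.9% passed as lower at day 1 and 29.1% at day 3, and in crypts 1.58% passed as higher and 3.15% as lower. The part of these cell types in the differences of the 10 genes was not tested.

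The next comparison asked whether the difference between genotypes changed from crypts to culture, in a limma model of all 18 libraries with mouse as a random effect, over 12145 genes. From crypts to day 1 it changed for 6 of the 10 genes, against 41.4% of all genes (20.3% upward and 21.1% downward). It increased for *Eno1* by 1.13 ± 0.21 on the log2 scale (adjusted p = 0.00171), *Pkm* by 1.06 ± 0.19 (0.00128), *Gapdh* by 0.94 ± 0.23 (0.00576), *Pfkp* by 0.68 ± 0.16 (0.00461) and *Ldha* by 0.62 ± 0.23 (0.0391), and it decreased for *Hk2* by -2.14 ± 0.76 (0.0345). Between crypts and day 3 it changed for 5, against 31.6% of all genes (16.5% upward and 15.1% downward): *Hk1* by 2.03 ± 0.52 (0.011), *Pkm* by 1.13 ± 0.19 (0.00112), *Eno1* by 0.91 ± 0.21 (0.0068), *Gapdh* by 0.84 ± 0.23 (0.0148) and *Pfkp* by 0.68 ± 0.16 (0.00713). *Slc2a1*, higher in *Mtgr1*-/- at each time, differed by -0.12 ± 0.19 and -0.10 ± 0.19 from its crypt difference, with adjusted p of 0.629 and 0.715. From day 1 to day 3 0 of the 10 genes changed, against 0.0329% of all genes (0.0247% upward and 0.00823% downward), and at an unadjusted p below 0.05 there was 1 of the 10, *Hk1* (adjusted p = 0.636, limma), against 7.23% of all genes. The same crypt libraries enter both changes from crypts.

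Several of these changes rested on few mice. The change of *Ldha* from crypts to day 1 was lost without WT mouse 1 (adjusted p = 0.0855, limma), mouse 2 (0.192) or mouse 3 (0.0594) or *Mtgr1*-/- mouse 1 (0.0941) or mouse 3 (0.102), and with mouse as a fixed effect, the replicate block of this fit (0.0721). That of *Hk2* was lost without WT mouse 1 (0.096), mouse 2 (0.0812) or mouse 3 (0.127) or *Mtgr1*-/- mouse 3 (0.0917). Over the step to day 3, the change of *Gapdh* was lost without WT mouse 1 (0.075), mouse 2 (0.0574) or mouse 3 (0.0581), and that of *Pfkp* without WT mouse 2 (0.0556). In the same step *Hk2* passed with mouse as a fixed effect, the replicate block (-1.90, adjusted p = 0.0293), with quantile normalisation (-1.98, 0.0454), with equal totals (-2.13, 0.0466) and without *Mtgr1*-/- mouse 1 (-2.56, 0.0214) or mouse 2 (-1.04, 0.0469). Without both crypt libraries that stood apart the change of *Hk2* to day 1 was -0.96 and no longer passed (adjusted p = 0.0665, limma), and that of *Hk1* to day 3 was 1.10 and passed (0.0076). *Pfkl* then passed as lowered to day 1 (-0.50, 0.0442) and to day 3 (-0.56, 0.0433), and *Hk1* passed from day 1 to day 3 (1.21, 0.025). *Pfkl* also passed with equal totals (-0.67, adjusted p = 0.0108, to day 1 and -0.61, 0.0259, to day 3), without WT mouse 3 alone (-0.44, 0.0467 and -0.63, 0.019) and, to day 3, with quantile normalisation (-0.54, 0.037). *Pgk1* passed to day 1 without *Mtgr1*-/- mouse 2 (0.43, adjusted p = 0.0366, limma). *Ldha* no longer passed to day 1 with equal totals (0.27, 0.248), nor *Gapdh* to day 3 with quantile normalisation (0.39, 0.0674). Under quantile normalisation, *Pkm* (0.28), *Eno1* (0.36), *Gapdh* (0.07) and *Ldha* (-0.09) no longer passed from crypts to day 1.

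For a view across time, all 18 libraries were rescaled together by median ratios, and these levels are descriptive. *Slc2a1* was lowest in WT crypts, then in *Mtgr1*-/- crypts, WT day 3, WT day 1, *Mtgr1*-/- day 3 and *Mtgr1*-/- day 1, and no neighbours in this order overlapped. From crypts to day 1 it went up 2.86-fold in WT and 2.65-fold in *Mtgr1*-/-. Over the same step the mean levels of *Gapdh*, *Eno1* and *Pkm* went in opposite directions in the 2 genotypes, to 0.819, 0.729 and 0.920 times the crypt level in WT and to 1.58, 1.60 and 1.94 times in *Mtgr1*-/-, where all 3 mice went up. In WT all 3 mice went down for *Gapdh* and *Eno1*, and 1 of 3 went up for *Pkm*. *Pfkp* went down in WT, to 0.424 times its crypt level at day 3, in all 3 mice. *Pfkl* went up from crypts to day 3 in all 3 mice of each genotype, 2.08-fold in WT and 1.62-fold in *Mtgr1*-/-. Per kilobase of the principal transcript, *Gapdh* had the highest level in WT crypts, 69704 rescaled counts per kilobase, followed by *Ldha*, *Pkm*, *Eno1*, *Pgk1*, *Pfkp*, *Pfkl*, *Hk2* and *Slc2a1*, and *Hk1* had the lowest, 61.2.

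Within groups, the genes of the lower part of glycolysis varied together. After the mean of each group was subtracted, the 10 pairs among *Gapdh*, *Pgk1*, *Eno1*, *Pkm* and *Ldha* had Pearson r between 0.69 and 0.95 over the 18 libraries, with a median of 0.82. *Mtgr1*-/- day 3 mouse 2 deviated by 0.19 to 0.37 for these genes, and *Mtgr1*-/- crypt mouse 2 by -0.27 to -0.15. The enterocyte marker sum of that day 3 library was 681245, against 410752 and 418924 in its group. Pairs of genes outside the 10 were not compared in this way. *Hk1* and *Hk2* had r = -0.75, with large opposite deviations in crypts, where the libraries that stood apart were included. There *Mtgr1*-/- mouse 2 deviated by -0.89 for *Hk1* and 1.83 for *Hk2*, mouse 1 by 0.59 and -1.37, and WT mouse 3 by 0.98 and -0.54. In enteroids *Hk1* deviated by only -0.36 to 0.22 and *Hk2* by -0.48 to 0.63, and r was not computed for enteroids alone. *Slc2a1* had r = 0.13 with *Gapdh* and 0.03 with *Pkm*. The points of each pair share their library and its scaling factor. Over the deviations from the mean of each table, the genes most like *Slc2a1* among 12145 were *Ero1l*, *Nt5c2* and *Dusp14* (r = 0.97, 0.97 and 0.96, 18 libraries). Those most like *Hk2* were *Arhgef10l*, *Surf6* and *Tgm2* (0.92, 0.90 and 0.89), and those most like *Ldha* were *Sucla2*, *Ak3* and *Sdha* (0.98, 0.98 and 0.97). These r include the difference between genotypes, which many genes share.

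The other genes around the pathway were read by list. Of the 18 other glycolytic genes, 13 were tested. At day 1, 8 rose and 1 fell, and at day 3, 7 rose and 1 fell, where 58.9% and 59.0% of all genes passed. Those shares are the background of each enteroid count of the lists below. The background of each crypt count is 4.73% of all genes, 1.58% as higher and 3.15% as lower. *Aldoc*, an aldolase gene, rose by 1.71 and 0.72 on the log2 scale at day 1 and day 3, and *Hkdc1*, a hexokinase-like gene of the intestine, by 1.36 and 1.65. *Eno1b* passed only at day 3 (3.71 ± 1.38, adjusted p = 0.0462), from low counts. That call was lost without any 1 of the 3 *Mtgr1*-/- libraries (adjusted p = 0.0745, 0.0798 and 0.0889), and the difference ranged from 1.77 to 4.69 without single libraries. The gene that fell at both times was *Adpgk*, an ADP-dependent glucokinase (-0.85 and -0.80).

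Among glucose and lactate transporters, 0 of 7 passed in crypts, with 4 rising and 1 falling of 6 in enteroids at each time. The enterocyte transporters *Slc2a2* (GLUT2) and *Slc5a1* (SGLT1) rose by 1.45 and 1.13 at day 1 and by 1.43 and 0.99 at day 3. The lactate exporter *Slc16a3* rose by 1.61 at day 1, its chaperone *Bsg* rose by 0.42 at day 3, and the monocarboxylate transporter *Slc16a7* fell by 1.96 and 2.67. In enteroids *Slc2a1* was higher in *Mtgr1*-/- together with *Slc2a2* and *Slc5a1*, which mark absorptive cells. In crypts *Slc2a1* had a log2 difference of 0.82, and the median of all 7 tested glucose and lactate transporters of the list was -0.58. That median is not one of *Slc2a2* and *Slc5a1* alone. The part of absorptive cells in the difference of *Slc2a1* was not tested.

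Of 14 genes that set fructose-2,6-bisphosphate or regulate glycolytic genes, 2 fell in crypts, *Epas1* (HIF-2alpha, -2.76) and *Mlxipl* (ChREBP, -1.04, lost without WT mouse 1 or 2 with adjusted p = 0.0644 and 0.0634, limma). At day 1, 6 rose and 3 fell, and at day 3, 5 rose and 2 fell, so that 9 and 7 of the 14 passed, near the share of all genes. The kinase-phosphatase genes *Pfkfb2* and *Pfkfb4* rose by 1.25 and 1.19 at day 1 and by 1.20 and 1.17 at day 3, and *Mlx* by 0.63 and 0.53. *Myc* fell by 0.64 and 0.62, *Mlxip* by 0.43 and 0.39, and *Epas1* by 0.70 at day 1. At day 3 the call of *Myc* was lost without WT mouse 2 (-0.54, adjusted p = 0.0523, limma) and that of *Mlxip* without WT mouse 1 (-0.32, adjusted p = 0.0554). Of 15 hypoxia response genes, 0 passed in crypts, 8 rose at day 1, and 3 rose and 2 fell at day 3. *Bnip3* (1.97), *Ndrg1* (1.73) and *Egln3* (1.43) had the largest rises at day 1. At day 3 *Ndrg1* (1.40), *Egln3* (1.35) and *Higd1a* (0.41) rose, while *Pdk1* fell by 0.51 and *Kdm3a* by 0.32. The fall of *Pdk1* was lost without WT mouse 1 (adjusted p = 0.0617, limma) or mouse 2 (0.0584), and that of *Kdm3a* without WT mouse 1 (0.147) or mouse 2 (0.126) or *Mtgr1*-/- mouse 1 (0.106) or mouse 3 (0.119).

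Pyruvate can also enter mitochondria, and of 14 genes of that step 0 passed in crypts, 4 rose and 1 fell at day 1, and 6 rose and 1 fell at day 3. The 5 and 7 that passed were a smaller share than among all genes. *Pcx*, pyruvate carboxylase, rose by 2.25 and 2.13, and *Pdk4* rose by 1.64 and 1.78 and *Pdk2* by 1.14 and 0.68. Both encode kinases that switch off pyruvate dehydrogenase, as does *Pdk1*, which fell at day 3. The day 1 call of *Pdk4* was lost without WT mouse 1 or 2 or *Mtgr1*-/- mouse 1 or 3 (log2 differences from 1.06 to 1.67, adjusted p from 0.0934 to 0.137, limma). *Pdhx*, a structural subunit of that complex, fell by 0.37 at day 1. Of 7 pentose phosphate genes, 0 passed in crypts, 3 rose and 1 fell at day 1, and 4 rose at day 3, so that 4 of 7 passed at each, near the share of all genes. *Taldo1* rose by 0.97 and 0.55, *Pgd* by 0.59 and 0.85, *Tkt* by 0.41 at day 1 and *G6pdx* by 0.52 at day 3, and *Rpia* fell by 0.37 at day 1. Under quantile normalisation *Tkt* at day 1 turned to -0.11. The call of *Tkt* was lost without WT mouse 1 (adjusted p = 0.0511, limma), and that of *Rpia* without WT mouse 1 or 2 or *Mtgr1*-/- mouse 1 or 3 (adjusted p from 0.0894 to 0.1).

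Of 6 genes of gluconeogenesis, the reverse route, 1 fell in crypts, *Fbp1* (-3.10), 3 rose and 2 fell at day 1, and 2 rose and 2 fell at day 3. Thus 5 and 4 of the 6 passed, beside 58.9% and 59.0% of all genes. The call of *Fbp1* was lost without WT mouse 1 (adjusted p = 0.0657, limma) or mouse 2 (0.0744) or *Mtgr1*-/- mouse 1 (0.0534) or mouse 3 (0.0797). *Pck1*, the cytosolic phosphoenolpyruvate carboxykinase, rose by 4.96 and 3.63, from means of 15.5 and 14.6 normalised counts in WT enteroids. *G6pc* rose by 1.82 at day 1 and *Fbp2* by 0.58 and 0.49, the latter lost without WT mouse 1 or 3 (adjusted p = 0.0634 and 0.0633). The mitochondrial *Pck2* fell by 0.85 and 1.46, and *G6pc3* by 0.44 and 0.43. Median log2 differences of the lists, beside -0.01 and 0.00 for all genes at day 1 and day 3, were 0.40 and 0.46 for other glycolytic enzymes, 0.80 and 0.42 for transporters, 0.62 and -0.10 for hypoxia genes and 0.24 and 0.44 for the pentose phosphate pathway. They were 0.16 and 0.25 for regulators, 0.06 and 0.12 for pyruvate entry and 0.21 and 0.08 for gluconeogenesis. In crypts, beside 0.01 for all genes, they were -0.58 for transporters, -0.24 for gluconeogenesis, 0.16 for the pentose phosphate pathway, 0.09 for regulators, 0.04 for other glycolytic enzymes and for hypoxia genes, and -0.01 for pyruvate entry.

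**Figure D5:**
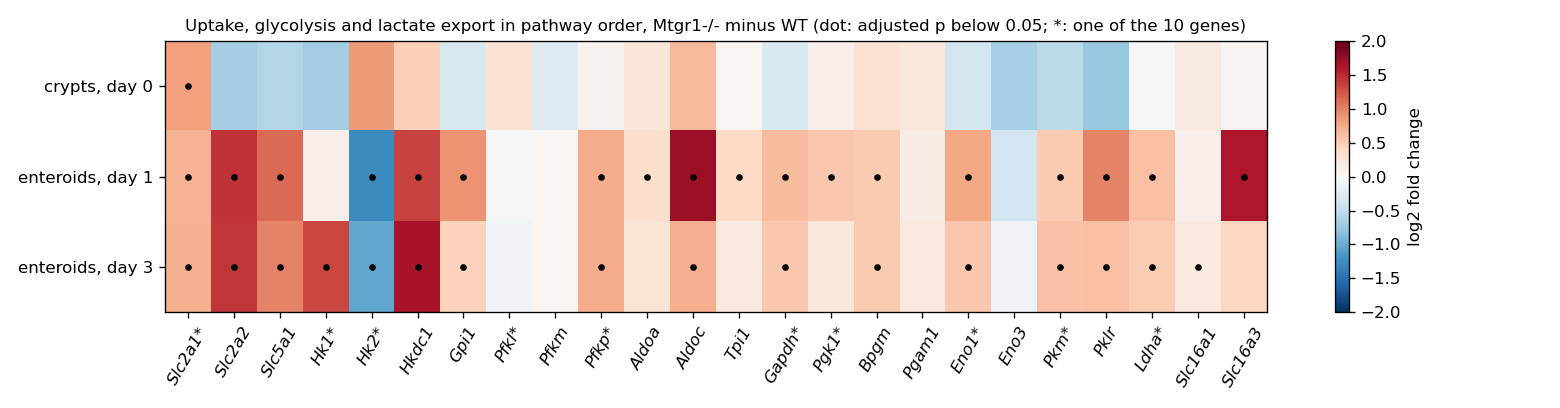
Log2 difference between *Mtgr1*-/- and WT (colour) of transporter, glycolytic and lactate export genes in pathway order, in crypts, day 1 and day 3 enteroids; a dot marks an adjusted p below 0.05 in limma and an asterisk one of the 10 genes. *Slc2a1* has a dot in all 3 rows. *Hk2* is the only gene shown with a dot for a fall in enteroids, and *Pfkl* lies at -0.03 and -0.09 there without a dot. *Adpgk* and *Slc16a7*, which also fell in enteroids, are not drawn. *Gapdh*, *Pkm* and *Ldha* at day 1 turn below 0 under quantile normalisation.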

How the data were processed

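RNA was measured in 18 libraries, made by the study with a stranded mRNA kit and sequenced as single 50-base reads on an Illumina HiSeq. The authors trimmed reads with fastp 0.20.0, quantified GENCODE mouse vM21 transcripts with Salmon 1.3.0, summed them to genes, left out genes with at most 1 count, and normalised with DESeq2 1.26.0. Positions are those of GENCODE vM21 on GRCm38. The deposited values used here are normalised counts, a signal that is the read count divided by 1 size factor per library, in 1 table per time point with 17759, 17423 and 17612 genes. Each table was normalised separately. The tables also hold the authors' log2 fold changes with standard errors, their Wald statistic (a score), their p-values and their mean counts, none of which was used.

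Values of each table were fitted as log2(count + 1) with limma 3.58.1 (R 4.3.3, trend, two-sided), keeping genes whose mean reached 10, with Benjamini-Hochberg adjustment and a threshold of 0.05. A difference on this scale understates the change of low genes. Groups came from the sample titles. Changes of the genotype difference used all 18 libraries, mouse being a random effect (correlation within a mouse -0.00481). Ratios and shares were compared by exact permutation tests. In all 18 libraries 100% of values lay within 0.001 of a whole multiple of a step, the value of 1 read. Whole reads were taken as recovered for 16. WT crypt mouse 2 and *Mtgr1*-/- day 3 mouse 2, whose steps of 0.990 and 0.994 are near 1, were left out of edgeR 4.0.16 and DESeq2 1.42.0. That share does not set them apart from the 16. The scripts were tested on simulated data with known changes.

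Mouse numbers run within each genotype. At day 1, same-numbered WT and *Mtgr1*-/- libraries deviated together (r = 0.116, 0.231 and 0.216 across genes), so the replicate block was also fitted there, and it kept every call of the 10 genes. At day 0 and day 3 the r were not all over 0.1.

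The 10 genes, the lists and the tests were chosen with earlier results of these data known. Text names all 10 genes, up to 3 rising and 3 falling genes per list and time, near-identical copies, and the 3 genes most like *Slc2a1*, *Hk2* and *Ldha*. A gene that this rule named is not reported here. Alternatives were the pseudocount, the filter, the scaling, the trend, library weights, the block, edgeR, DESeq2, summed copies and leaving out each library. Equal library totals and leaving out 2 crypt libraries together were chosen after seeing the data.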

Additional observations from a re-analysis of the deposited data

Results flagged for a closer look

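The difference between genotypes differed between crypts and enteroids for several of the 10 genes, by the test of the change itself in limma. By the same test 41.4% of all 12145 genes changed from crypts to day 1, and 31.6% between crypts and day 3. Under quantile normalisation 2 of the 10 genes still passed from crypts to day 1, with *Gapdh* at 0.07 and *Ldha* at -0.09. From crypts to day 1 the change on the log2 scale was 1.06 for *Pkm* (adjusted p = 0.00128), 0.94 for *Gapdh* (0.00576), 1.13 for *Eno1* (0.00171), 0.68 for *Pfkp* (0.00461) and 0.62 for *Ldha* (0.0391), and -2.14 for *Hk2* (0.0345). For day 3 against crypts it was 1.13 for *Pkm* (0.00112), 0.84 for *Gapdh* (0.0148), 0.91 for *Eno1* (0.0068), 2.03 for *Hk1* (0.011) and 0.68 for *Pfkp* (0.00713). As deposited, *Gapdh*, *Eno1* and *Pkm* went from lower values in every *Mtgr1*-/- crypt library to higher values in every *Mtgr1*-/- enteroid library. Of all genes, 13.5% were lower in *Mtgr1*-/- crypts without overlap, and 34.2% and 34.6% were higher at day 1 and day 3. Under quantile normalisation *Gapdh*, *Eno1* and *Pkm* differed by -0.081, 0.11 and -0.092 at day 1. At day 3 they differed by 0.21, 0.20 and 0.14, and none passed at either time. The *Hk2* change includes the single *Mtgr1*-/- crypt library with 6875 normalised counts, and the *Hk1* change includes the WT crypt library with 381. Without both libraries they were -0.96 (adjusted p = 0.0665, limma) and 1.10 (0.0076). Both changes from crypts use the same crypt libraries.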

How the results depend on the processing

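With 3 mice per genotype the exact tests could not go below 0.1. Libraries held 22035316 to 28621990 reads where these were recovered, and genes with a mean under 10, such as *Ldhb*, were left out of the tests. Of the values for single genes, 2058 kept their direction and side of the threshold under an alternative, 103 fell below it, 24 passed it and 59 turned direction. The cause of a change was not tested.

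For crypts the number of genes called, 614, became 2100 with library weights, 1133 without both libraries that stood apart, 239 with edgeR, 1217 with DESeq2, and 176 to 608 without single libraries. The count of the 10 genes called higher, 1, became 0 without the trend, with equal totals and with edgeR, 2 with library weights and without both libraries, and 0 to 1 without single libraries. That called lower, 0, became 1 with library weights and with DESeq2. Pathway list genes called, 4, became 7 without a filter, 18 with library weights, 15 without both libraries, 2 with edgeR, 12 with DESeq2 and 1 to 10 without single libraries. *Ldha* turned to 0.047 with quantile normalisation, 0.016 with equal totals, 0.046 with edgeR and 0.057 with DESeq2. *Hk1* turned to 0.015 with library weights and 0.24 without both libraries, *Pfkp* to -0.0094 and -0.012, *Cbfa2t2* to 0.028 and 0.11, and *Hk2* to -0.33 without both. Without single libraries *Ldha* ranged from -0.12 to 0.073, *Hk2* from -0.059 to 1.54, *Pfkp* from -0.019 to 0.13, *Pgk1* from -0.014 to 0.18 and *Cbfa2t2* from -0.21 to 0.082. The log2 difference of the *Ldha* to *Ldhb* ratio ranged from -1.59 to 0.36.

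At day 1, quantile normalisation left 2 of the 10 genes called higher and turned *Gapdh* to -0.081, *Pkm* to -0.092, *Ldha* to -0.034 and *Tkt* to -0.11. Equal totals gave 2 called lower and turned *Hk1* to -0.18, and library weights turned *Eno1b* to 0.87. Without single libraries *Hk1* ranged from -0.046 to 0.24 and *Pfkl* from -0.083 to 0.039. At day 3, quantile normalisation left 3 called higher, against 4 to 7 without single libraries. *Cbfa2t2* turned to -0.11 with library weights, -0.15 with equal totals, -0.024 with edgeR and -0.020 with DESeq2, and ranged from -0.024 to 0.15 without single libraries. *Pfkl* ranged from -0.22 to 0.00089, and the *Pkm* to *Pklr* ratio from -0.10 to 0.16.

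For the change from crypts to day 1, the number of genes, 5025, ranged from 3339 to 5546 without single mice, and quantile normalisation left 2 of the 10 genes and turned *Ldha* to -0.090. Without both libraries *Hk1* turned to -0.11 and *Slc2a1* to 0.092. For day 3 against crypts the number, 3834, became 2197 without both libraries and 1657 to 3708 without single mice, where the count of the 10 genes ranged from 3 to 6. *Ldha* turned to -0.0065 with quantile normalisation, *Pgk1* to -0.10 with equal totals and *Slc2a1* to 0.11 without both, and without single mice *Pgk1* ranged from -0.090 to 0.25 and *Slc2a1* from -0.19 to 0.023. From day 1 to day 3 the number, 4, became 35 with mouse as a fixed effect (the replicate block), 16 with a pseudocount of 8, 22 with quantile normalisation, 1 without the trend, 22 with equal totals, 46 without both libraries (with 1 of the 10 genes) and 0 to 882 without single mice, 882 being the number without *Mtgr1*-/- mouse 2. In that step quantile normalisation turned *Gapdh* to 0.32, *Eno1* to 0.12 and *Ldha* to 0.083, and equal totals turned *Pfkl* to 0.063, *Gapdh* to 0.020 and *Ldha* to 0.025. Without single mice *Gapdh* ranged from -0.35 to 0.043, *Ldha* from -0.37 to 0.047, *Pfkl* from -0.19 to 0.022, *Pfkp* from -0.20 to 0.14, *Pkm* from -0.084 to 0.16 and *Slc2a1* from -0.073 to 0.12.

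With the mouse number as a replicate block within each time point, 562 genes were called for crypts, 8027 for day 1 and 7289 for day 3, and the calls of the 10 genes did not change. At day 0 and day 3 the numbers did not pair the libraries, since not every library correlated best with its own number.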
